A study of Mus musculus with 6 samples.

Results

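RBBP4 and RBBP7 are close homologs, and the 2 mouse embryonic stem cell (mESC) lines that carry an extra copy of one or the other were compared with each other directly. The comparison used 4 of the 6 poly(A) RNA-seq libraries of the series, 2 of the line with biotin-tagged Rbbp4 (Rbbp4 OE, the Rbbp4 line) and 2 of the line with biotin-tagged Rbbp7 (Rbbp7 OE, the Rbbp7 line), and the tag-only controls were left out. Of 55401 genes listed, 12399 entered the comparison: protein-coding genes whose longest transcript exceeds 300 nt and whose mean over the 4 libraries is at least 0.5 TPM (an estimate of each gene's share of the transcripts, scaled by transcript length to a fixed total per library). Both lines were made from 46C cells, a male mESC line with a Sox1 reporter. Both also express the biotin ligase BirA with a V5 tag, and both carry a Flag-Avitag that the ligase can biotinylate. The cells were grown without feeders on gelatin, in serum with LIF and the inhibitors Chir99021 and PD0325901, with no further treatment. Each construct was delivered by lentivirus and selected with puromycin into a single line, so a property of the construct and a property of that line cannot be told apart. The labels do not say that the 2 libraries of a line are separate cultures, so every p-value measures only the spread between these libraries, which may be technical.

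The RBBP proteins are WD-repeat histone chaperones that bind histones H3 and H4. They are shared subunits of chromatin complexes, among them the deacetylase complexes NuRD and SIN3, the Polycomb complex PRC2, the remodeller NURF, the DREAM and MuvB cell cycle complexes and, for RBBP4, the nucleosome assembly factor CAF-1. In mESCs these complexes act on genes of pluripotency, lineage and the early embryo, which is why the expression programs of the lines were set side by side.

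Whether the reads of one homolog could be counted for the other was looked at first, on the coding sequences of GENCODE M21 (mouse genome GRCm38). Rbbp4 (ENSMUSG00000057236.10) lies on the minus strand of chromosome 4 from 129307100 to 129335370, and Rbbp7 (ENSMUSG00000031353.13) on the plus strand of chromosome X from 162760402 to 162779092. The longest coding sequence of each is 1278 nt long. In a global alignment, 999 of 1269 aligned bases (78.7%) were identical, and the longest run without a difference was 20 nt. None of the 1202 aligned windows of 30 nt was identical, and the median window held 6 differences. The window with the most differences and the window with the fewest are shown 5′ to 3′, because they bound how alike a stretch of this length of the aligned coding sequences can be. The untranslated parts were not aligned. Capitals mark the bases that differ.
Rbbp4, coding bases 499 to 528: tgCaaCccCgatTtGCgTCtCCgTggAcaT
Rbbp7, coding bases 496 to 525: tgTaaTccTgatCtTAgATtAAgAggTcaC
Rbbp4, coding bases 935 to 964: cctttgaatcCcataaggatgaaatAttcc
Rbbp7, coding bases 932 to 961: cctttgaatcGcataaggatgaaatTttcc
The first pair differs at 13 of 30 bases and the second at 2 of 30.

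Each homolog was higher in the line named for it. Rbbp4 was listed at 270 and 271.2 TPM in the Rbbp4 line and at 144 and 143 TPM in the Rbbp7 line. The 2 libraries of each line were nearly equal and the lines did not overlap. The log2 difference, Rbbp4 line minus Rbbp7 line on log2(TPM + 1), was 0.91 (SE 0.04, adjusted p = 0.0129), a 1.88-fold difference. Rbbp7 was listed at 208 and 217 TPM in the Rbbp4 line and at 725 and 748 TPM in the Rbbp7 line. It was lower in both libraries of the Rbbp4 line, with a log2 difference of -1.79 (SE 0.04, adjusted p = 0.00156), a 3.45-fold difference. The gap between the lines was therefore wider for Rbbp7 than for Rbbp4 on this scale. Reads from the transgene and from the endogenous gene share 1 TPM value here, so the size of the added copy cannot be read from these levels. The reference genes Gapdh (-0.07, adjusted p = 0.097) and Actb (0.24, adjusted p = 0.127) did not pass the test at 0.05, and the sign for Gapdh turned under median-of-ratios scaling (0.04).

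**Figure D1:**
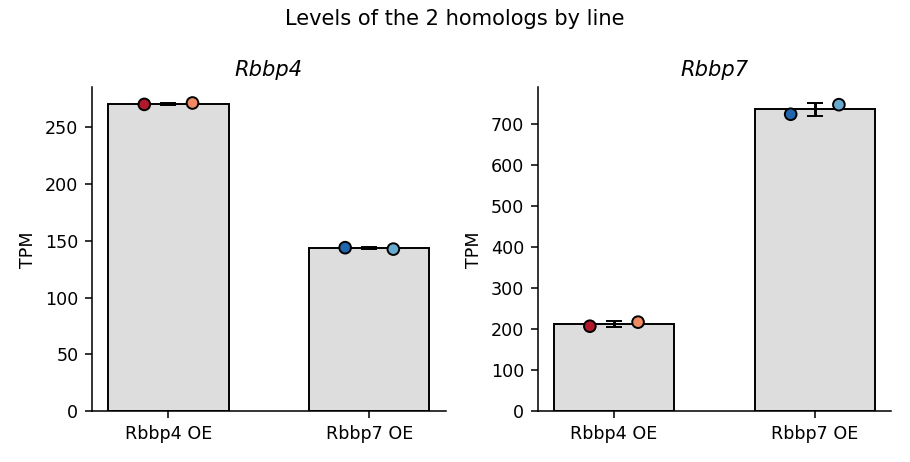
TPM of Rbbp4 (left) and Rbbp7 (right) in the 2 lines. Bars are the means of 2 libraries, error bars the SD and points the single libraries. Rbbp4 sits near 270 TPM in the Rbbp4 line and near 143 TPM in the Rbbp7 line, and Rbbp7 between 208 and 217 TPM against 725 to 748 TPM.

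Both lines expressed the mESC markers, but 1 library of each stood apart in genes of other cells. The 12 mESC markers, Pou5f1 and Nanog among them, summed to between 8967 and 9267 TPM in each library. In replicate 2 of the Rbbp4 line, 25 of 26 genes typical of hepatocytes were tested, and each was more than 2-fold above all of the other 3 libraries. Their summed level was 1119 TPM there and 10.5 to 11.6 TPM elsewhere, with the acute-phase genes Saa2 at 154 TPM and Saa1 at 132 TPM and the albumin gene Alb at 87.4 TPM. In replicate 1 of the Rbbp7 line, all 23 of a list of stromal and inflammatory genes were more than 2-fold above the other libraries. They summed to 567 TPM against 13.2 to 18.0 TPM, with the chemokine gene Ccl2 at 72.3 TPM and the collagen gene Col3a1 at 6.39 TPM. Both lists were chosen after their values were seen, so no test was made of them. Of the 15 fibroblast or feeder markers, 9 were tested, and the summed level of the list was 14.0 and 16.9 TPM in the Rbbp4 line and 34.2 and 13.4 TPM in the Rbbp7 line. In Rbbp7 OE replicate 1, 3 of the 9 tested were more than 2-fold above the other libraries, Col3a1 (6.39 TPM) and Col6a3 (5.10 TPM) among them, while Lum (0 in every library) and Dcn (at most 0.36 TPM) were at or near 0. Without overlap 5 of the 9 were lower in the Rbbp4 line and 2 higher, beside 41.6% and 15.6% over all genes. The 2 were Thy1, the most abundant member, at 8.87 and 10.8 TPM against 7.01 and 7.04 TPM, and Mfap5, at 1.85 and 1.77 TPM against 1.47 and 1.16 TPM.

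**Figure D2:**
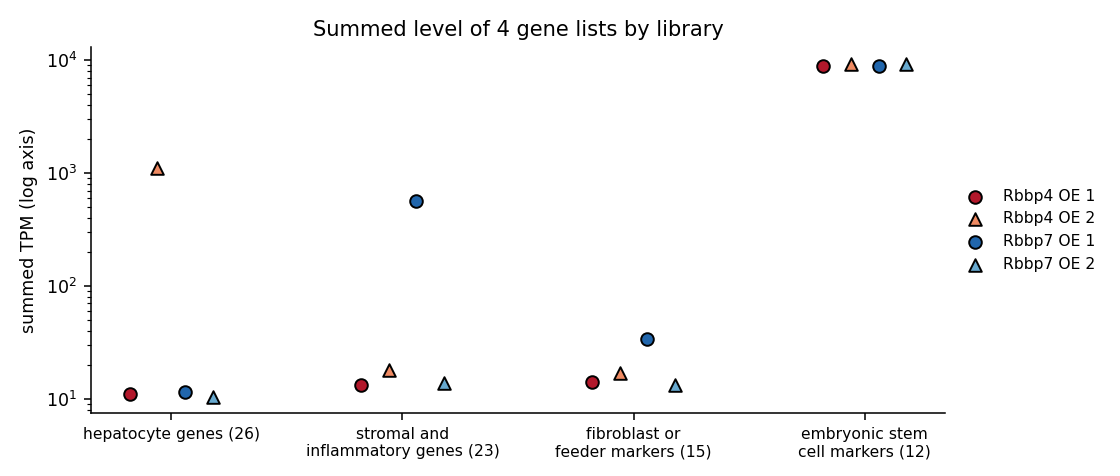
Summed TPM (log axis) of 4 gene lists in each of the 4 libraries, with the number of genes listed in brackets. Hepatocyte genes reach 1119 TPM only in Rbbp4 OE replicate 2, stromal and inflammatory genes 567 TPM only in Rbbp7 OE replicate 1, and mESC markers lie between 8967 and 9267 TPM in all 4.

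In all, 100 genes were more than 2-fold above the other 3 libraries in Rbbp4 OE replicate 2 and 128 in Rbbp7 OE replicate 1, against 15 and 13 in the other replicates of these lines. Of the 230 genes that passed the test below at adjusted p under 0.05, 0 were such genes. A gene raised over 2-fold above its own replicate has a wide spread within its line and could hardly pass. The 0 therefore does not show that the passing genes are untouched by these libraries. Libraries of 1 line differed by a median of 0.11 on the log2 scale in both lines, and libraries of different lines by 0.19 to 0.20. By Pearson correlation and by genes over 2-fold apart, however, the closest pair was across the lines, Rbbp4 OE replicate 1 with Rbbp7 OE replicate 2 (0.989 and 166 genes), against 0.985 and 206 genes within the Rbbp4 line and 0.987 and 259 genes within the Rbbp7 line. TPM keeps no sequencing depth, so the depth is unknown and no counting interval is given.

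Few genes separated the lines by the study's thresholds and many did so by less than 2-fold. At an adjusted p under 0.01 and a fold over 2 (limma-trend, Benjamini-Hochberg), Rbbp7 was the single gene called of 12399 (0.00807%). At adjusted p under 0.05 with no fold minimum, 230 genes passed (1.85%), 64 higher (0.516%) and 166 lower (1.34%) in the Rbbp4 line. Before adjustment 3264 genes (26.3%) were under 0.05, and where no member of a list passed, the number of its members under 0.05 before adjustment is given as the unadjusted count of the same limma fit. By a description without a test, 557 genes (4.49%) were apart by 1.5-fold or more with no overlap between lines, 181 higher (1.46%) and 376 lower (3.03%) in the Rbbp4 line. Of these 557 genes, 350 were also 1.5-fold apart the same way when Rbbp4 OE replicate 1 was set against Rbbp7 OE replicate 2, a pair without the libraries that stand apart, and 70 were genes raised in 1 library.

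The split by direction depended on the scaling. The median of all genes was -0.09, and 41.6% of genes had both Rbbp4 OE libraries lower against 15.6% with both higher. After median-of-ratios scaling the median was 0.00, and 120 genes passed higher and 32 lower, so that the share of higher calls moved from 27.8% to 78.9%. Of the genes apart by 1.5-fold, 268 were then higher and 227 lower, 54.1% higher in place of 32.5%. Of the 55 lists below with a tested gene, 19 had a median that turned from negative to positive with this scaling and 12 with quantile normalization, and all of those medians were at -0.10 or nearer 0. Differences are therefore to be read against the median of -0.09.

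The number of passing genes also hung on single libraries and on a joint correction for GC content and gene length. Without Rbbp4 OE replicate 1, Rbbp7 OE replicate 1 or Rbbp7 OE replicate 2 no gene passed at 0.05 (limma, with 2286, 2318 and 2621 genes under 0.05 before adjustment), and without Rbbp4 OE replicate 2 only 1 gene did, Rbbp7. In such a fit the lone library is assumed to vary like the pair of the other line. The genes that passed higher in the Rbbp4 line had a median transcript length of 1488 nt and those that passed lower 3794 nt, against 3260 nt over all genes tested. Their median GC contents were 53.6%, 47.1% and 50.3%. With GC content and length corrected together, 2 genes passed, Rbbp4 and Rbbp7. As both were corrected at once, this fit cannot tell the part of length from that of GC content. Neither part in the other differences was tested further. The median of all genes stayed at -0.09 with that correction.

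**Figure D3:**
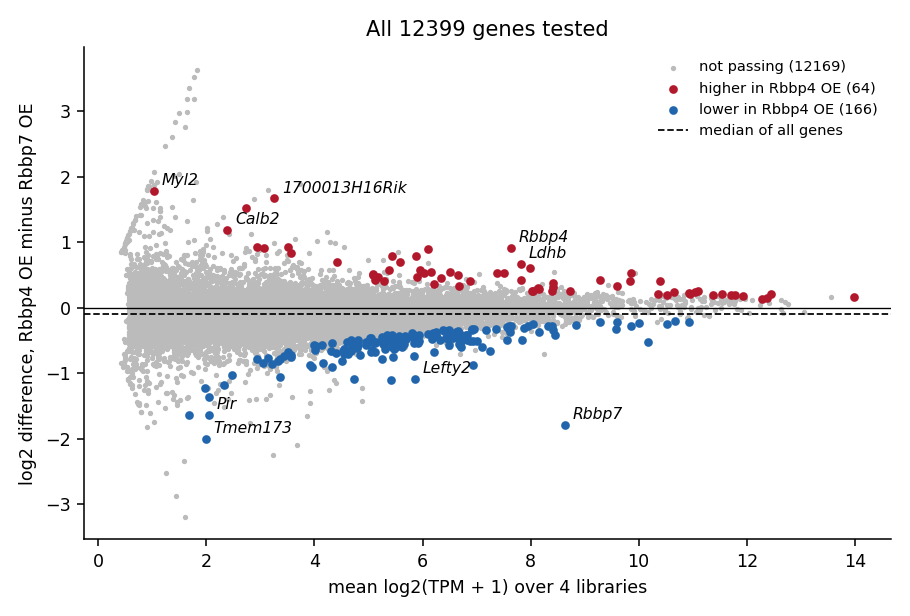
Log2 difference (Rbbp4 OE minus Rbbp7 OE) against mean log2(TPM + 1) for the 12399 genes tested. The 64 genes that passed higher in the Rbbp4 line and the 166 that passed lower are coloured, the dashed line is the median of -0.09, and most passing differences lie within 1 log2 unit.

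Among the genes that passed lower in the Rbbp4 line, Tmem173 had the largest difference. Tmem173, which encodes the innate immune adaptor STING, was listed at 0.95 and 1.00 TPM in the Rbbp4 line and at 7.93 and 6.04 TPM in the Rbbp7 line. Its log2 difference was -2.01 (SE 0.17, adjusted p = 0.0465). Pir, the gene of the iron-binding nuclear protein pirin, was at 1.47 and 1.23 TPM against 6.31 and 6.27 TPM (-1.64, SE 0.14, adjusted p = 0.0465). Neither gene overlapped between lines, and the nearest libraries of Tmem173 were 1.82 apart on the log2 scale. Cracr2b, which encodes a regulator of calcium entry, was at 1.12 and 0.55 TPM against 4.19 and 5.15 TPM (-1.64). Bag2, a co-chaperone of HSP70, was at 1.38 and 1.82 TPM against 5.98 and 5.34 TPM (-1.36).

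Further genes passed in the same direction. Ccne2, which encodes cyclin E2 of the entry into S phase, was at 1.49 and 1.62 TPM against 5.17 and 4.77 TPM (-1.22). Htra1, a secreted serine protease, was at 29.0 and 27.4 TPM against 67.8 and 56.1 TPM (-1.10). Both genes had the 2 Rbbp4 OE libraries under the 2 Rbbp7 OE libraries. Ppfibp1, a liprin of cell contacts, was at 2.65 and 3.15 TPM against 6.96 and 6.87 TPM (-1.02). Chtf8, a subunit of an alternative clamp loader, was lower (-1.10) under 1 of its 2 gene identifiers and did not pass under the other (-0.27, adjusted p = 0.159), so its reads may be split between overlapping models and its value is uncertain.

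Among the genes that passed higher in the Rbbp4 line, Myl2 and 1700013H16Rik had the largest differences. Myl2, which encodes the regulatory light chain of cardiac myosin, was at 3.02 and 2.58 TPM in the Rbbp4 line, at 0.21 TPM in one library of the Rbbp7 line and listed at 0 in the other (1.79, SE 0.20, adjusted p = 0.0492). 1700013H16Rik, an X-linked gene, was at 15.1 and 17.1 TPM against 4.87 and 3.88 TPM (1.67, SE 0.14, adjusted p = 0.0465). Fxyd2, a regulator of the sodium and potassium pump, was at 11.6 and 8.98 TPM against 2.98 and 2.83 TPM (1.52). These 3 genes showed no overlap between lines, and Myl2 was above 0 in only 1 Rbbp7 OE library. Calb2, which encodes the calcium buffer calretinin of neurons, was at 6.65 and 7.14 TPM against 2.68 and 2.26 TPM (1.19).

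The other named genes of this direction differed by less than 2-fold on the log2(TPM + 1) scale, which understates changes of low genes. Cebpb, a basic leucine zipper transcription factor, was at 9.42 and 9.71 TPM against 4.53 and 4.52 TPM (0.94). Sap30bp, which encodes a binding partner of the SIN3 subunit SAP30, was at 89.4 and 95.1 TPM against 49.6 and 48.3 TPM (0.90, adjusted p = 0.0465). In each the 2 libraries of a line were closer to each other than to any library of the other line. Naprt, an enzyme of NAD synthesis, was at 14.2 and 15.3 TPM against 7.49 and 8.23 TPM (0.83). Ier5l, an immediate early response gene, was at 56.0 and 55.9 TPM against 29.8 and 34.0 TPM (0.80). Cenpv, a centromere protein gene, was at 79.4 and 73.2 TPM against 44.9 and 42.3 TPM (0.79). The Y-linked Eif2s3y, which encodes a subunit of the initiation factor eIF2, was at 14.5 and 14.8 TPM against 6.56 and 7.92 TPM (0.93).

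**Figure D4:**
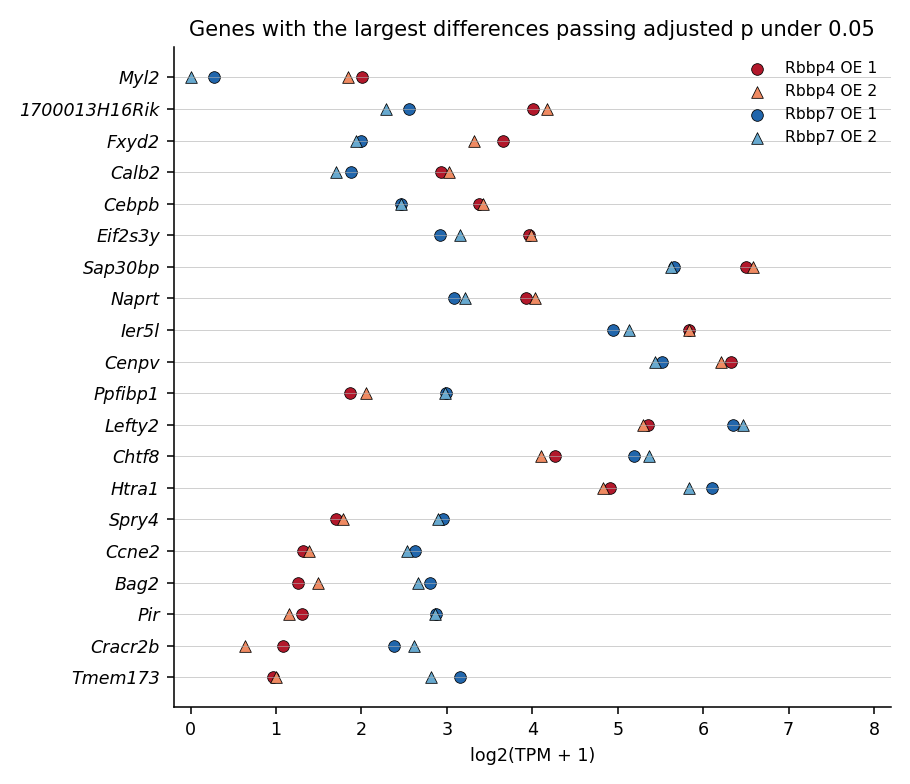
Log2(TPM + 1) in each library for the genes named in the text from the largest differences at adjusted p under 0.05, Rbbp4 and Rbbp7 left out. Red points are the Rbbp4 line and blue points the Rbbp7 line, circles replicate 1 and triangles replicate 2, and the 2 colours do not overlap in any gene, as the choice of genes required.

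Across the settings tried the direction of these genes did not turn. They were chosen from these libraries for large differences without overlap, so leaving out 1 library could not turn it. Tmem173 and Pir were lower in the Rbbp4 line in 15 of 15 alternatives that tested them and passed at 0.05 in 5 and 6 of them. Sap30bp was higher in 16 of 16 and passed in 8. Myl2 was higher in 15 of 15 and passed in 4, with a difference of 0.61 at a pseudocount of 5 and of 4.04 at 0.1.

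Targets of Nodal and FGF had medians below that of all genes, and a few of them passed lower in the Rbbp4 line. Nodal is a TGF-beta ligand of the early embryo that mESCs make themselves, and it induces its own inhibitors. Lefty2, a secreted inhibitor of Nodal, was at 39.8 and 38.2 TPM in the Rbbp4 line and at 80.7 and 87.2 TPM in the Rbbp7 line (-1.09, SE 0.06, adjusted p = 0.0465). Smad7, the intracellular inhibitor of the same receptors, was at 80.4 and 87.3 TPM against 121 and 130 TPM (-0.57, adjusted p = 0.0492). Tdgf1, the co-receptor of Nodal, was at 291 and 303 TPM against 352 and 371 TPM and did not pass (-0.28, adjusted p = 0.055). Of 19 tested Nodal and BMP targets, 2 passed, both lower, and the median was -0.18. Lefty2 passed in 8 of 16 alternatives and was lower in all 16. As it was chosen without overlap, leaving out 1 library could not turn its direction.

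FGF signals through ERK, and its feedback genes report on that pathway, which PD0325901 blocks in this medium. Spry4, a Sprouty inhibitor of receptor kinase signalling, was at 2.24 and 2.44 TPM in the Rbbp4 line and at 6.74 and 6.44 TPM in the Rbbp7 line (-1.18, SE 0.13, adjusted p = 0.0492). Etv5, the most abundant member of the list, was at 134 and 137 TPM against 150 and 153 TPM (-0.16, adjusted p = 0.102). Fosl1, an AP-1 transcription factor gene, was at 0.21 and 0.12 TPM against 2.62 and 0.32 TPM, so that 1 library of the Rbbp7 line, the one with stromal transcripts, carried its difference (-0.91, adjusted p = 0.322). Of 16 tested genes Spry4 alone passed. The median was -0.28, and it was -0.15 between Rbbp4 OE replicate 1 and Rbbp7 OE replicate 2 alone.

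The lists used for the pathways that LIF and Chir99021 drive gave no passing gene. Of 18 tested Wnt targets 0 passed (unadjusted 2), with a median of -0.04, and the cyclin gene Ccnd1 was at 36.2 and 35.8 TPM against 48.1 and 44.1 TPM (-0.34, adjusted p = 0.0713). Of 18 LIF and STAT3 genes 0 passed (unadjusted 7), with a median of -0.15. Stat3 itself was at 28.6 and 29.3 TPM against 39.7 and 44.5 TPM, which did not overlap but missed the threshold (-0.52, adjusted p = 0.0546).

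The complexes that hold RBBP4 and RBBP7 had medians between -0.18 and 0.00 and few passing members. In NuRD 0 of 12 members passed (unadjusted 6) and the median was 0.00, with Mbd3 at 288 and 284 TPM against 250.3 and 249 TPM (0.20, adjusted p = 0.0592) and the ATPase gene Chd3 at 14.95 and 11.01 TPM against 17.6 and 19.7 TPM (-0.50, adjusted p = 0.139). In SIN3, 1 of 18 passed, Sap30l, a paralog of Sap30, at 48.8 and 50.5 TPM against 32.2 and 34.0 TPM (0.57, adjusted p = 0.0492), and the median was -0.15. In PRC2, 1 of 10 passed, the core subunit gene Suz12, at 60.3 and 56.6 TPM against 76.9 and 77.9 TPM (-0.40, adjusted p = 0.0499), and the median was -0.18. Both passing members had lines that did not overlap, and their directions were opposite.

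Histone chaperones outside the RBBP proteins gave 1 gene higher and 3 lower of 27 tested, with a median of -0.13. The higher gene was Npm1, the nucleolar chaperone nucleophosmin, at 6040 and 6011 TPM against 5185 and 5230 TPM (0.21, adjusted p = 0.0465). The lower genes were Anp32e, which removes H2A.Z (-0.43), Supt16, a subunit of the FACT complex (-0.42), and Nap1l1, a nucleosome assembly protein (-0.26), each at adjusted p = 0.0492. Of 13 MuvB and DREAM genes 0 passed (unadjusted 5, median -0.17). Of 27 NURF and BAF remodeller genes 1 passed, the BAF subunit gene Arid1a, at 37.6 and 35.3 TPM against 51.2 and 54.4 TPM (-0.52). Of 25 PRC1 genes 1 passed, the Polycomb reader Cbx7, at 73.3 and 73.7 TPM against 93.3 and 92.9 TPM (-0.34).

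Lists of repressive chromatin marks gave no passing gene (unadjusted 12 and 7). Among 27 genes of H3K9 methylation and heterochromatin 17 had both Rbbp4 OE libraries lower and 1 had both higher, with a median of -0.15, which became -0.05 under median-of-ratios scaling. Among 15 genes of DNA methylation and demethylation 11 were lower and 1 higher without overlap, with a median of -0.16. Read against the 41.6% of all genes that were lower without overlap, these counts are shares of 63.0% and 73.3%. The genes of both lists are long, with median lengths of 4327 and 4320 nt against 3260 nt over all genes tested. With GC content and length corrected the medians were -0.10 and -0.16, beside -0.09 over all genes. The part of length in these shares was not tested.

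Pluripotency genes separated the lines little. Of 19 core pluripotency genes 0 passed (unadjusted 9), with a median of -0.02. The most abundant, Dppa5a, was at 4740 and 5134 TPM in the Rbbp4 line and at 4762 and 4870 TPM in the Rbbp7 line, and its libraries overlapped (0.03, adjusted p = 0.643). Of 20 naive pluripotency genes 1 passed, the Kruppel-like factor gene Klf5, at 76.0 and 69.7 TPM against 109 and 108 TPM (-0.56, adjusted p = 0.0492). Its relative Klf4 was at 160 and 141 TPM against 194 and 218 TPM and did not pass (-0.45, adjusted p = 0.0676), and Zfp42 (-0.14, adjusted p = 0.0957) did not pass either. Dppa3 was higher, at 2.56 and 2.06 TPM against 1.59 and 0.89 TPM, without passing (0.58, adjusted p = 0.191). Of the 20 naive genes 7 (35.0%) were higher and 9 (45.0%) lower without overlap, beside 15.6% and 41.6% over all genes. Their median was -0.06. Of 19 formative and primed genes 0 passed (unadjusted 3), with a median of -0.08.

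The 2-cell program was at or near 0 in both lines. Of 31 listed genes of the 2-cell embryo 2 reached the expression filter and 0 passed (unadjusted 0). The 28 matched genes of that list summed to 2.45 and 2.97 TPM in the Rbbp4 line and to 4.66 and 4.73 TPM in the Rbbp7 line. These low sums do not overlap and were not tested. Of 8 listed markers, the 7 matched markers of 2-cell-like cells, the Zscan4 genes among them, summed to 0.42 and 0.88 TPM in the Rbbp4 line and to 0.78 and 2.06 TPM in the Rbbp7 line, which overlap. Trophoblast genes gave 1 passing member of 21, Tead4, the transcription factor of the first trophectoderm decision, at 14.0 and 13.2 TPM against 25.6 and 27.1 TPM (-0.90, SE 0.08, adjusted p = 0.0465). The median of that list was -0.03.

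Neural genes had a median above that of all genes. Of 25 listed genes 12 reached the expression filter and were tested. Of these 12, 2 passed, both higher in the Rbbp4 line, and the median was 0.33. Without overlap 8 (66.7%) were higher against 1 lower, beside 15.6% higher over all genes. Besides Calb2, the passing gene was Tubb3, a tubulin of neurons that mESCs also express, at 113 and 114 TPM against 89.5 and 91.0 TPM (0.33, adjusted p = 0.0492). Stmn2, a regulator of microtubules in neurons, was at 210 and 175 TPM against 158 and 147 TPM and did not pass (0.33, adjusted p = 0.125). Of the 10 neural progenitor markers, 5 were at 0 in all 4 libraries, 3 were tested, and the summed level, nearly all of it Tubb3, was 121 and 122 TPM against 95.1 and 96.5 TPM. The intermediate filament gene Nes was at 5.64 and 5.87 TPM against 4.34 and 4.30 TPM (0.34, adjusted p = 0.154). Sox1, also tested, was at 1.67 and 1.13 TPM against 1.07 and 1.17 TPM and overlapped between lines.

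Other lineage lists gave no passing gene (unadjusted 2, 3 and 4 in the order given). Mesoderm and definitive endoderm genes had a median of 0.22 over 10 tested, and of -0.01 between Rbbp4 OE replicate 1 and Rbbp7 OE replicate 2 alone. Primitive endoderm genes had a median of -0.14 over 12, and homeobox genes of -0.04 over 40. The endoderm markers summed to 2.78 and 7.30 TPM in the Rbbp4 line, where Ttr reached 4.64 TPM in the library with hepatocyte genes, and to 1.82 and 3.24 TPM in the Rbbp7 line. Of 342 Zfp zinc finger genes 1 passed higher, Zfp428 (0.42), and 2 lower, the mRNA decay factors Zfp36l1 (-0.42) and Zfp36l2 (-0.85), with a median of -0.10.

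No germline or X-linked Xlr gene passed, and most Xlr genes did not overlap between the lines. The Xlr genes are a multigene family of near-identical lymphocyte and germ cell genes, so how reads were divided among the copies is uncertain. Of 10 tested 0 passed (unadjusted 6), and the median was 0.48. Without overlap 8 (80.0%) were higher in the Rbbp4 line, beside 15.6% over all genes. Of these 8, 4 were higher by 1.5-fold or more, beside 1.46% over all genes. Xlr4b was at 13.03 and 13.95 TPM against 6.22 and 9.56 TPM (0.73, adjusted p = 0.11), and Xlr5b at 13.6 and 11.7 TPM against 6.60 and 8.55 TPM (0.68, adjusted p = 0.0841). Of 28 germline genes 0 passed (unadjusted 5, median 0.09), with the meiotic axis gene Sycp3 at 11.2 and 10.7 TPM against 6.14 and 7.55 TPM (0.61, adjusted p = 0.0766). Of 34 imprinted genes 2 passed, both higher in the Rbbp4 line, Snrpn, at 83.7 and 83.1 TPM against 63.1 and 65.6 TPM (0.37), and the tetraspanin gene Cd81, at 286 and 290 TPM against 242 and 239 TPM (0.26).

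Ribosomal protein genes were the list with the most passing members. Of 80 tested, 13 passed, all 13 higher in the Rbbp4 line, and 63 (78.8%) were higher without overlap against 4 lower, beside 15.6% higher over all genes. The differences were small, with a median of 0.13 and none at 1.5-fold. The largest was Rpl39l, a paralog of Rpl39 that is abundant in the testis and mESCs, at 258 and 267 TPM against 199 and 192 TPM (0.42, SE 0.04, adjusted p = 0.0465). Rpl12, of the large subunit, was at 2317 and 2277 TPM against 1891 and 1989 TPM (0.24, adjusted p = 0.0492). Rpl13a, the most abundant, was at 12985 and 12704 TPM against 11193 and 11704 TPM and did not pass (0.17, adjusted p = 0.0587). These are short genes with many processed pseudogenes. With GC content and length corrected the median of the list was 0.00, which was still above the -0.09 of all genes. No member was among the 2 genes that passed with that correction.

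Other genes of ribosome assembly and translation passed in both directions. Of 32 ribosome biogenesis genes 2 passed higher, Mybbp1a, a nucleolar MYB-binding protein gene, at 740 and 702 TPM against 538 and 539 TPM (0.42, adjusted p = 0.0465), and Npm1, and 1 lower, the nucleolar helicase gene Ddx21, at 80.5 and 79.4 TPM against 109 and 111 TPM (-0.46, adjusted p = 0.0465). Of 31 translation factor genes 4 passed, all lower in the Rbbp4 line, beside 1.34% passing lower over all genes. These were Eif1a (-0.38), Eif2s3x (-0.32), Eif4h (-0.31) and Eif4g1 (-0.27), all of initiation and all at adjusted p = 0.0492. None of the 4 passed with median-of-ratios scaling in the limma fit, where adjusted p ran from 0.0688 for Eif1a to 0.126 for Eif4g1. The median of the translation factors was -0.09, equal to that of all genes.

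Mitochondrial genes were also mixed. Of 75 nuclear genes of the respiratory chain 35 (46.7%) were higher and 15 (20.0%) lower without overlap, beside 15.6% and 41.6% over all genes, and their median of 0.06 became -0.08 with GC content and length corrected. In that list 1 gene passed in each direction, the ATP synthase subunit genes Atp5j2 (0.26) and Atp5b (-0.21), both at adjusted p = 0.0492. Of 11 genes of the mitochondrial genome mt-Co1, of cytochrome oxidase, passed higher at 17288 and 17199 TPM against 15389 and 15419 TPM (0.16), and mt-Nd3, of complex I, lower at 1007 and 914 TPM against 1386 and 1383 TPM (-0.53). The median of the 11 genes, 0.12, became -0.02 with the same correction, and that of all genes was then -0.09. The summed level went the other way from the uncorrected median. The 13 listed genes summed to 103711 and 98150 TPM in the Rbbp4 line and to 111475 and 109490 TPM in the Rbbp7 line. These sums do not overlap and were not tested. Proteasome genes gave 0 of 38 (unadjusted 12), with a median of 0.01. Splicing factors gave 2 lower of 34, the SR protein gene Srsf1, at 126 and 113 TPM against 189 and 192 TPM (-0.67, adjusted p = 0.0465), and Hnrnpm (-0.29).

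Cell cycle genes passed mainly as single members lower in the Rbbp4 line. Of 53 G1/S and replication genes 2 passed, both lower, Rpa1, the large subunit of the single-strand binding protein RPA, at 110.3 and 110.4 TPM against 165 and 170 TPM (-0.60, SE 0.04, adjusted p = 0.0465), and Mcm4, of the replicative helicase, at 107 and 106 TPM against 135 and 135 TPM (-0.34). Of 27 cyclins and their regulators Ccne2 alone passed. The kinase gene Cdk6 was at 3.37 and 17.9 TPM against 22.0 and 25.8 TPM, so that the 2 Rbbp4 OE libraries differed from each other by more than the second differed from the Rbbp7 line (-1.45, adjusted p = 0.256). Of 47 G2/M genes 1 passed, Ect2, an activator of RhoA in cell division, at 35.8 and 32.2 TPM against 52.3 and 51.6 TPM (-0.60), while Dlgap5 missed the threshold (-0.42, adjusted p = 0.0507). Of 29 p53 targets 0 passed (unadjusted 9), with a median of -0.05.

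Histone genes were spread widely. Of 41 replication-dependent histone genes, whose messages mostly lack a poly(A) tail and which share near-identical copies, 0 passed (unadjusted 9). By 1.5-fold without overlap 5 were higher and 4 lower, beside 1.46% and 3.03% over all genes. The median was 0.26, and 0.08 with GC content and length corrected, beside -0.09 over all genes with that correction. Hist1h2af was at 4.41 and 4.18 TPM against 0.72 TPM in one library of the Rbbp7 line and listed at 0 in the other (2.01, adjusted p = 0.0529). Hist1h4b was at 1.98 and 3.72 TPM against 0.70 TPM and a listed 0 (1.52, adjusted p = 0.0888). Of 12 replacement variants 0 passed (unadjusted 5), with a median of 0.06.

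Among metabolic lists, the lactate dehydrogenase genes went opposite ways. Ldhb, of the form that favours lactate use, was at 285 and 281 TPM in the Rbbp4 line and at 173 and 181 TPM in the Rbbp7 line (0.67, SE 0.04, adjusted p = 0.0465). Ldha, of the form that favours lactate production, was at 716 and 725 TPM against 849 and 824 TPM (-0.22, SE 0.03, adjusted p = 0.0499). Both held apart in every library, and the glucose transporter gene Slc2a3 (-0.34) and the pyruvate kinase gene Pkm (-0.20) were also lower, both at adjusted p = 0.0492. The lower calls depended on the scaling. With median-of-ratios scaling in the limma fit Ldhb passed (0.78, adjusted p = 0.0412). Ldha (-0.11, adjusted p = 0.142), Slc2a3 (-0.23, adjusted p = 0.0724) and Pkm (-0.09, adjusted p = 0.141) did not. Aldoa, the aldolase gene, was higher at 1769 and 1743 TPM against 1492 and 1481 TPM (0.24) under 1 of its 2 gene identifiers, and its value is uncertain for that reason. In all, 2 of 25 glycolysis entries passed higher and 3 lower, with a median of -0.10.

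The passing lipid genes were lower in the Rbbp4 line. Of 24 cholesterol synthesis genes 1 passed, Idi1, which makes an isoprenoid building block, at 27.3 and 26.0 TPM against 43.5 and 43.1 TPM (-0.68, SE 0.06, adjusted p = 0.0465), and 16 (66.7%) were lower without overlap against 1 higher, beside 41.6% lower over all genes. The median was -0.16, and -0.05 under median-of-ratios scaling, and the cyclase gene Lss missed the threshold (-0.45, adjusted p = 0.0561). Of 27 genes of fatty acid synthesis and oxidation Acly, which makes cytosolic acetyl-CoA, passed at 162 and 156 TPM against 220.2 and 229 TPM (-0.50, adjusted p = 0.0465). The fatty acid synthase gene Fasn was at 393 and 395 TPM against 319 and 338 TPM and did not pass (0.26, adjusted p = 0.055). The oxidation enzyme gene Acadl was at 5.33 and 5.82 TPM against 12.5 and 10.1 TPM (-0.89, adjusted p = 0.055).

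Stress genes showed a pair of metallothioneins higher in the Rbbp4 line. Mt1 was at 1030.5 and 1083 TPM against 809 and 789 TPM (0.40, SE 0.04, adjusted p = 0.0465), and Mt2, its neighbour on chromosome 8, at 1490.2 and 1627 TPM against 1179 and 1173 TPM (0.40, adjusted p = 0.0492). These metal-binding proteins sat in a list of 31 NRF2 and glutathione genes, of which the other passing members were Pir and Txnrd1, the cytosolic thioredoxin reductase gene (-0.42), both lower. Of 20 hypoxia targets Hif1a, of the oxygen-sensing transcription factor, passed at 16.1 and 15.2 TPM against 26.5 and 25.5 TPM (-0.70, adjusted p = 0.0492), and the median was -0.21. Of 30 integrated stress response genes Cebpb alone passed, and Ddit4 was at 32.0 and 34.5 TPM against 21.6 and 23.8 TPM (0.53, adjusted p = 0.0558). Of 27 heat shock and unfolded protein genes the chaperone genes Hspa8 (0.14, adjusted p = 0.0499) and Hspd1 (-0.22, adjusted p = 0.0492) passed in opposite directions. With median-of-ratios scaling in the limma fit Hspa8 passed (0.24, adjusted p = 0.0463) and Hspd1 did not (-0.11, adjusted p = 0.137). Of 36 lysosome and autophagy genes 0 passed (unadjusted 9), with a median of -0.10.

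The medians of some lists depended on the libraries that stand apart. Of 27 interferon and innate response genes 0 passed (unadjusted 4), 11 were more than 2-fold above all other libraries in Rbbp7 OE replicate 1, and the median was -0.48. Between Rbbp4 OE replicate 1 and Rbbp7 OE replicate 2 alone the median was 0.13, so the sign turned without the libraries that stand apart. The fibroblast or feeder markers had a median of -0.49 over 9 tested and of -0.06 in that pair. Extracellular matrix and adhesion genes gave 0 of 34 (unadjusted 10), with a median of -0.19 and of -0.08 in the pair. Actin cytoskeleton genes gave 2 lower of 38, the gamma actin gene Actg1 (-0.25) and the tropomyosin gene Tpm3 (-0.42), and their median of -0.23 became 0.03 in the pair.

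**Figure D5:**
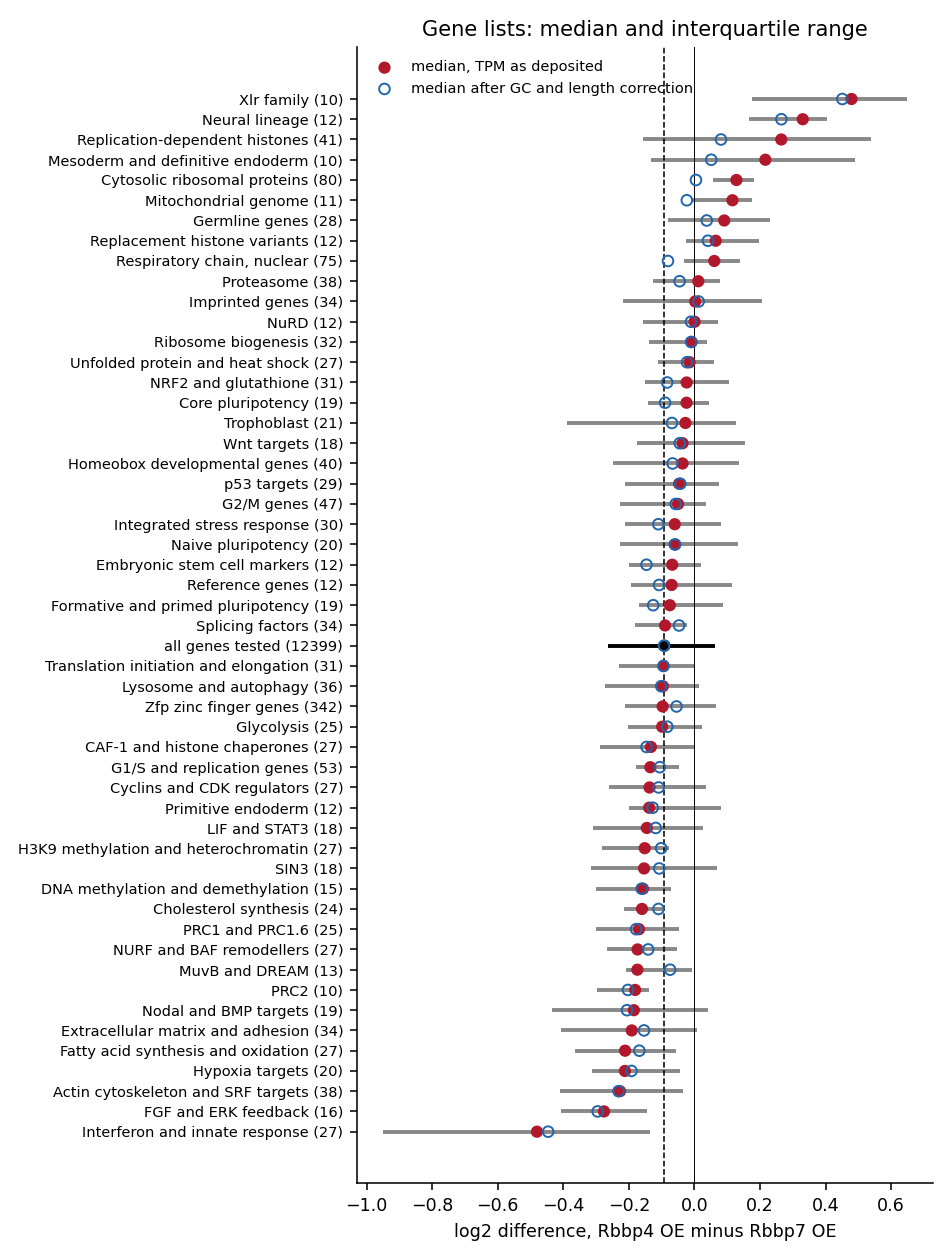
Median (filled points) and interquartile range (bars) of the log2 difference, Rbbp4 OE minus Rbbp7 OE, for each list with 10 or more tested genes, the number tested in brackets, without the lists chosen after their values were seen, and for all genes (black, dashed line at -0.09). Open circles are medians with GC content and length corrected. Of the lists drawn, the Xlr family (0.48) and neural genes (0.33) are highest and the interferon list (-0.48) is lowest. The ribosomal protein median goes from 0.13 to 0.00 with the correction, while that of all genes stays at -0.09.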

How the data were processed

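Per the study's methods, the authors trimmed reads with Trim_galore, aligned them to mm10 with STAR and estimated expression with RSEM. The deposited tables hold TPM values, 1 table per library, with no counts and no depth. Genes were matched by identifier without version to GENCODE M21 (55141 of 55401), which gave biotype, length and GC content of the longest transcript. The study tested counts, which were not analysed here. Limma-trend (limma 3.58.1, R 4.3.3) was fitted on log2(TPM + 1) with a pseudocount of 1, 2 against 2 libraries, 2 residual and 2.91 prior degrees of freedom. P-values were adjusted by Benjamini-Hochberg over 12399 genes, and many genes with close p-values share 1 adjusted value. An exact permutation test of 2 against 2 cannot go below 0.333. On this scale changes of low genes are understated. The code was tested on simulated data. Coding sequences were aligned with Biopython 1.88. The members, the gene lists and the rule for named genes (both homologs, Gapdh, Actb, the 12 largest passing differences each way, and the passing, largest and most abundant members of each list) were chosen with earlier results of these data known. Y-linked genes and their X-linked partners, noncoding, short, hepatocyte and stromal genes, Pou5f1, Nanog, Lum and Dcn were named after their values were seen. A few items under the rule are not reported here.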

Additional observations from a re-analysis of the deposited data

How the results depend on the processing

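The counts depended on the settings more than the directions did. Many named genes were chosen without overlap between lines, so leaving out 1 library could not turn their directions. At adjusted p under 0.01 and a fold over 2, the single call became 0 with no filter on low values, 6 with all genes of the tables, 16 at adjusted p under 0.05 and fold over 2, and 0 without any 1 library. At adjusted p under 0.05, the 230 genes went to 2 at a pseudocount of 5 and to 2 without a filter, 775 with a mean TPM of at least 5, 152 with median-of-ratios scaling, 60 with quantile normalization, 29 in a fit with the controls, 14 with all genes of the tables, 2 with GC content and length corrected, and 612 without the genes that 1 library raises, an alternative chosen after seeing the data. Leaving out 1 library gave 0 to 1. The genes apart by 1.5-fold, 557 in all, became 1093 with a pseudocount of 0.1, 119 with a pseudocount of 5, 244 with a mean TPM of at least 5, 99 at 2-fold and 2482 at a difference of 0.32 log2 units, and 717 to 1034 without 1 library. The cause of these moves was not tested.

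The differences of replicate 1 and 2 had a Pearson correlation of -0.02 between the lines. Genes raised in 1 library may weigh on this value, so it cannot show whether replicate numbers pair the libraries. With a replicate block 1 gene passed at 0.05 in place of 230, and the adjusted p of Rbbp4 was 0.0938 and of Rbbp7 0.00498. Without 1 library the difference of Rbbp4 ran from 0.91 to 0.92 (adjusted p 0.111 to 0.197) and that of Rbbp7 from -1.82 to -1.75 (adjusted p 0.0273 to 0.0686). The log2 difference of Rbbp4 with the block was 0.91.

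Of the values for single genes under these alternatives, 836 kept direction and side of the threshold, 775 lost the threshold, 30 gained it and 5 turned sign: Gapdh with median-of-ratios scaling (0.035), Dppa5a with quantile normalization (-0.0504), with GC content and length corrected (-0.133) and among fits without 1 library, which ran from -0.0229 to 0.0923, and Ddx3y without 1 library, from -0.00302 to 0.46. Depth is unknown, so what it limits cannot be stated.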

Other observations

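Of 8 listed Y-linked genes 4 were tested, 3 were higher in the Rbbp4 line without overlap, and Eif2s3y alone passed. These genes and their X-linked partners were chosen after their values were seen. Uba1y, a spermatogenic ubiquitin-activating enzyme gene, was at 2.35 and 1.52 TPM in the Rbbp4 line and at 0.62 and 0.39 TPM in the Rbbp7 line (0.95, adjusted p = 0.0888), and the histone demethylase gene Uty at 1.00 and 1.17 TPM against 0.56 and 0.57 TPM (0.41, adjusted p = 0.239). The libraries of the lines did not overlap in either gene. Ddx3y was at 3.95 and 2.59 TPM against 2.91 and 2.31 TPM and overlapped between lines (0.23, adjusted p = 0.543). Of the 7 X-linked partners 2 passed, both lower in the Rbbp4 line. These were Eif2s3x, at 111 and 109 TPM against 137.2 and 137.4 TPM, and the RNA helicase gene Ddx3x, at 83.6 and 84.9 TPM against 129 and 127 TPM (-0.60, adjusted p = 0.0465). The summed level of all 8 listed Y-linked genes was 22.1 and 20.4 TPM against 11 and 11.37 TPM.

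Noncoding transcripts lay outside the 12399 genes. In a fit over all genes of the tables, Meg3, the maternally expressed long RNA of the imprinted region on chromosome 12, was at 224 and 222 TPM in the Rbbp4 line and at 169 and 175 TPM in the Rbbp7 line (0.38, adjusted p = 0.0718). Its neighbour Rian was at 180 and 169 TPM against 145 and 148 TPM (0.25, adjusted p = 0.0928). Both were higher in the Rbbp4 line without overlap and neither passed at 0.05.

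Very short genes behaved differently from longer ones. Of 153 genes with a longest transcript of 300 nt or shorter and a mean of at least 0.5 TPM, 5 had a listed 0 throughout the Rbbp7 line but 10 TPM or more throughout the Rbbp4 line, and 3 the other way. Among 14020 longer genes there were 0 of either kind. The largest was Bc1, a small brain cytoplasmic RNA of 168 nt, at 4101 and 1286 TPM in the Rbbp4 line and listed at 0 in the Rbbp7 line. Snora73a, a small nucleolar RNA of 205 nt, was at 54.1 and 54.6 TPM against a listed 0 in both. All 8 such genes were between 164 and 210 nt long, and the cause of these zeros was not tested.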
